A study of Mus musculus with 8 samples.

Results

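Laminin chains, the nidogens and perlecan, the secreted proteins that build the basal lamina around muscle cells, were followed in C2C12 cells that carried an HDAC4 virus or a control virus. The set was 10 named genes: Lama2, Lama3, Lama4, Lama5, Lamb1, Lamb2, Lamc1, Nid1, Nid2 and Hspg2. A probe counted as a member when the platform annotation gave it exactly 1 gene and that gene was one of the 10. This gave 18 probes for 9 genes, of 31769 probes and 14510 named genes in all. No probe was named for Lamb2, which was not analysed here. A probe was tested when it had at least 3 values in each group, and 14 probes of 8 genes met this.

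C2C12 is an established mouse myoblast line, of C3H origin per the labels, that fuses into myotubes when serum is lowered. The control group (Neo, 4 arrays) was stably selected with a retrovirus encoding Neo, and the other group (HDAC4, 4 arrays) with one encoding HDAC4-Neo; HDAC4 is a histone deacetylase that binds MEF2 transcription factors. Both groups were grown to 90% confluence, held in 2% horse serum for 4 days, and collected as total RNA. Each array carried Cy5-labelled RNA of the cells beside a Cy3-labelled murine reference, given as liver in one protocol of the labels, and the dyes were never exchanged. Whether the samples of a group were separate cultures is not in the labels, so the spread behind every p-value is that of these samples and may be technical. The cells were selected populations rather than tissue, and in bulk RNA fewer cells of a type and less RNA per cell cannot be told apart.

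Values are log2 ratios of cells over reference, centred on each array's median. This direction was read from the values as likely, since 7 probes of 6 myotube marker genes averaged between 8.74 and 9.05 on all 8 arrays, and every sign below depends on it. Of 10 liver markers only Ahsg was tested, at 0.62 in Neo and 0.41 in HDAC4 (n = 3 each). Alb, Fgb, Cyp2e1 and Hpx had no value. Liver markers thus settled neither the direction nor the source of the reference. A ratio to the reference does not give one gene's level against another's, so the groups were compared probe by probe. Some values join probes within an array, namely gene averages, marker averages and Nid1 minus Nid2. These do not compare the levels of genes either. On many probes the reference signal appeared to stand at a floor of 10 units, inferred from linear ratios that became whole numbers once multiplied by 10. There the value holds the signal of the cells alone and can be written in those units. Lama2 and Lama4 were almost wholly of this kind, and the tested probes of the other genes had no value at the floor.

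A laminin is a heterotrimer of an alpha, a beta and a gamma chain that polymerises on the cell surface. The alpha chain carries the domains bound by dystroglycan and by integrins, and so sets which receptor holds the sheet. Nidogens bridge laminin to type IV collagen, and perlecan, the product of Hspg2, is a heparan sulfate proteoglycan that binds both nidogen and dystroglycan. In skeletal muscle the alpha chain of the main laminin is encoded by Lama2, whose loss causes a congenital muscular dystrophy.

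The RefSeq table (GRCm38.p6) held the start region of 6 of the 10 genes: Lama2, Lama5, Lamb1, Lamb2, Nid1 and Hspg2. Of these, Lama2, which holds the lowest difference between HDAC4 and Neo in the set, and Nid1, which holds the highest, are shown for the 250 bases before the annotated start, 5′ to 3′ on the gene's strand, with matches to the E-box letters CANNTG in capitals. E-boxes are bound by the myogenic regulatory factors.
Lama2, chr10:27616943-27617192, minus strand: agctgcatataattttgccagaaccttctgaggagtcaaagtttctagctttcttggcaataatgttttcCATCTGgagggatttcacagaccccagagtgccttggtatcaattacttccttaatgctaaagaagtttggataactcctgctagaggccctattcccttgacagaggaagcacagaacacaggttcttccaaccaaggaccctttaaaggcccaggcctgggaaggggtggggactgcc
Nid1, chr13:13437352-13437601, plus strand: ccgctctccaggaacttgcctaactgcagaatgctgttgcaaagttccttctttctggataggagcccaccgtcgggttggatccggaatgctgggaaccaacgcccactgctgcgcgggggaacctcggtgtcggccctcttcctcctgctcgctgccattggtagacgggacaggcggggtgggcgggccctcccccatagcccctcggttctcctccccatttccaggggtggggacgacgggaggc
Searched on both strands, the Lama2 window held 1 E-box and the Nid1 window held 0. The count was 2 in Lama5, 2 in Lamb1, 1 in Lamb2 and 0 in Hspg2. At least 1 E-box stood in 66.2% of the 32851 windows of the same length in the table. The MEF2 consensus was searched in the same way. It had no match in any of the 6 windows, and 2.92% of all windows held one. The base composition of the pair shown was unlike, with 47.2% G or C in the Lama2 window and 64.4% in the Nid1 window. These matches describe the letters in these windows and no more.

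None of the 14 tested probes differed between HDAC4 and Neo at an adjusted p under 0.05 in limma, and their adjusted p lay at 0.567 or above. Across the array 21 of 16748 probes passed, 0.125%, with 1 higher and 20 lower. With the replicate number as a block 9 probes passed across the array, and again no member. At an unadjusted p under 0.05 there were 3 members, against 7.03% of all probes: a probe of Lama2 and the probe of Lama4 on the lower side and the probe of Nid1 on the higher side. The groups did not overlap on 2 members, against 5.25% of all probes, and for the Lama2 probe among them this came from the centring. Both had only 3 values in each group, where groups separate by chance more readily than with 4. Of all tested probes, 14746 had a value on all 8 arrays, so the 2 shares are not alike. Of the 14, 10 lay lower in HDAC4 and 4 higher, with a median log2 difference of -0.16, where 50.6% of all tested probes lay lower and their median was -0.0036.

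**Figure D1:**
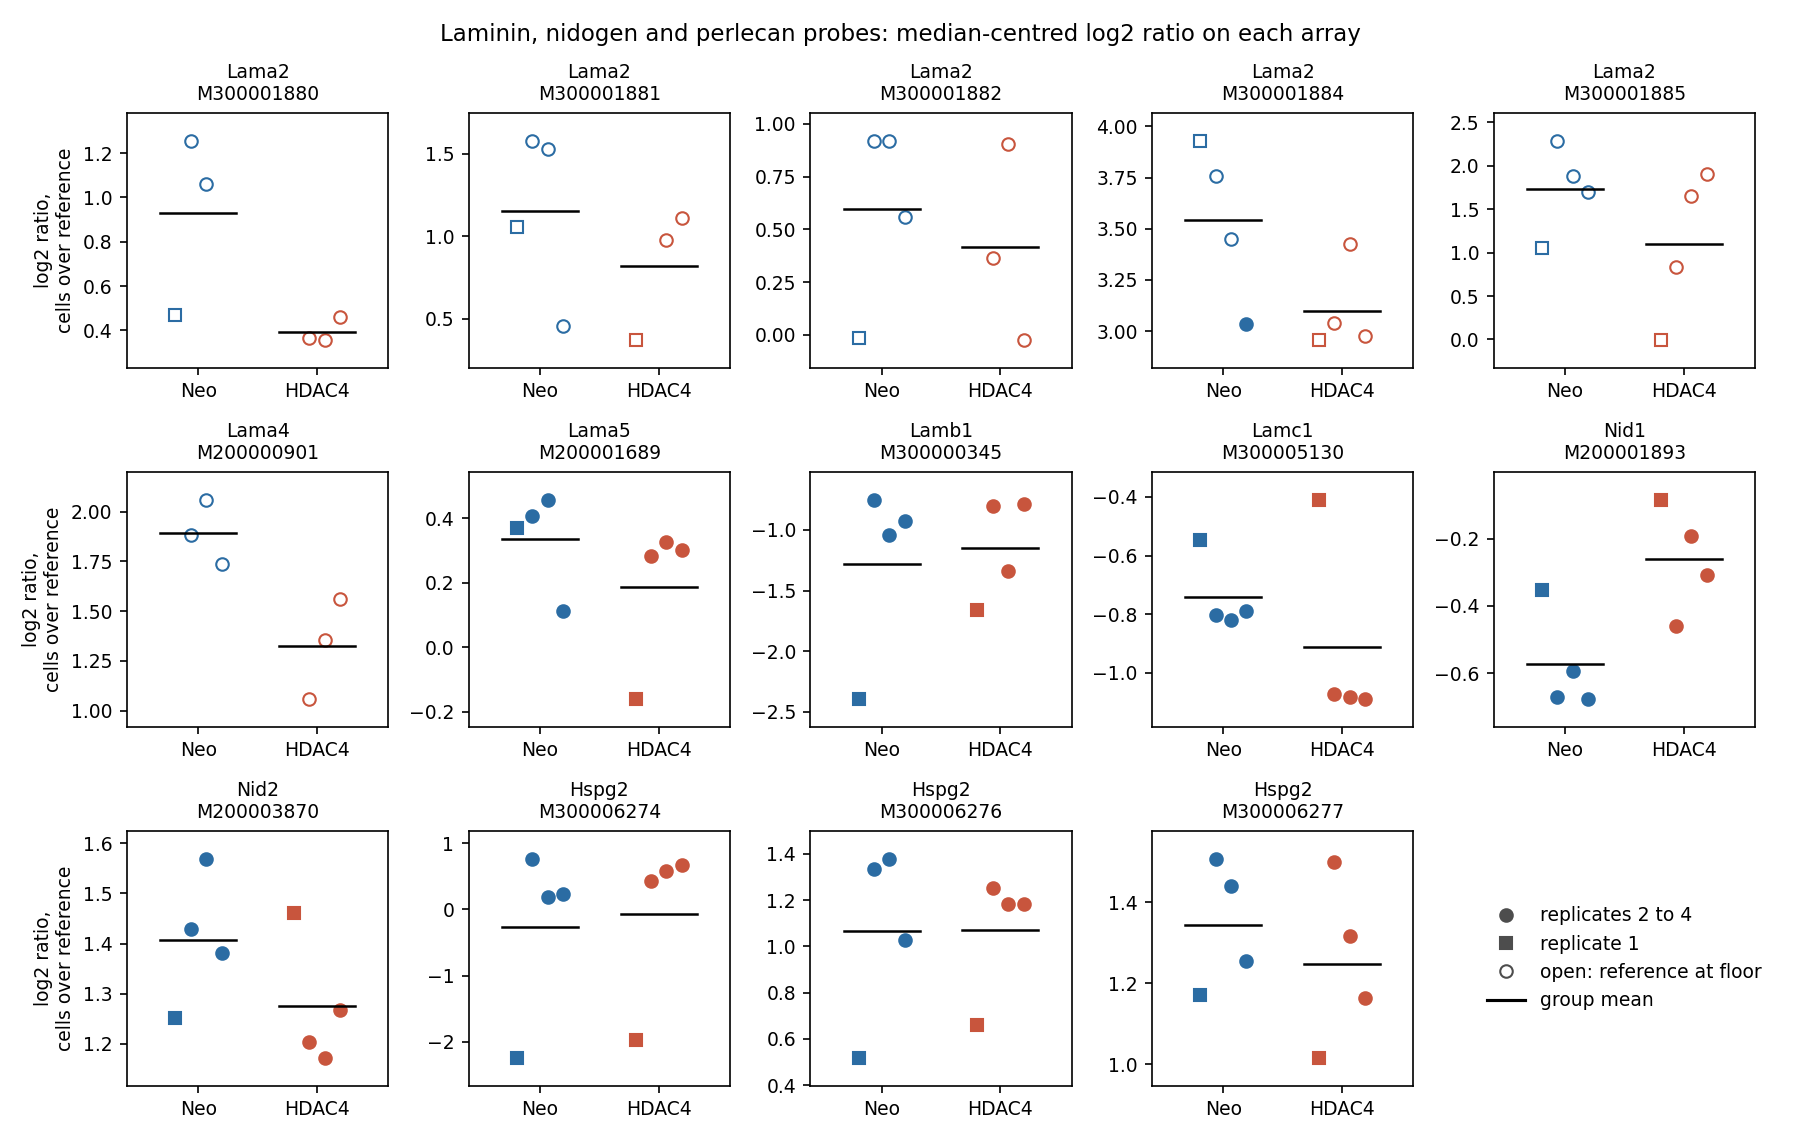
Median-centred log2 ratio of cells over reference on each array for the 14 tested probes, with Neo in blue and HDAC4 in red, replicate 1 as a square, open symbols where the reference was at its floor and a line at the group mean. Lama4 had groups that did not overlap, those of Lama2 M300001880 were tied before centring, and on several Hspg2, Lamb1 and Lamc1 panels the squares stand away from the circles in both groups.

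The lower values lay mainly on probes at the reference floor. All 6 probes that were mostly at the floor were lower in HDAC4, with a median of -0.49. Over all 771 tested probes of that kind 81.1% were lower, with a median of -0.38. The 8 members never at the floor divided evenly, 4 lower and 4 higher, with a median of -0.05, beside 48.8% lower and a median of 0.006 over the 13854 such probes. A shift to lower values was thus shared by floor probes in general, though not evenly by level. Their median difference was -0.18 at a mean log2 ratio of 0 to 1, -0.44 at 1 to 2 and -0.51 at 2 to 4. What part this shift has in the lower values of Lama2 and Lama4 was not tested.

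**Figure D2:**
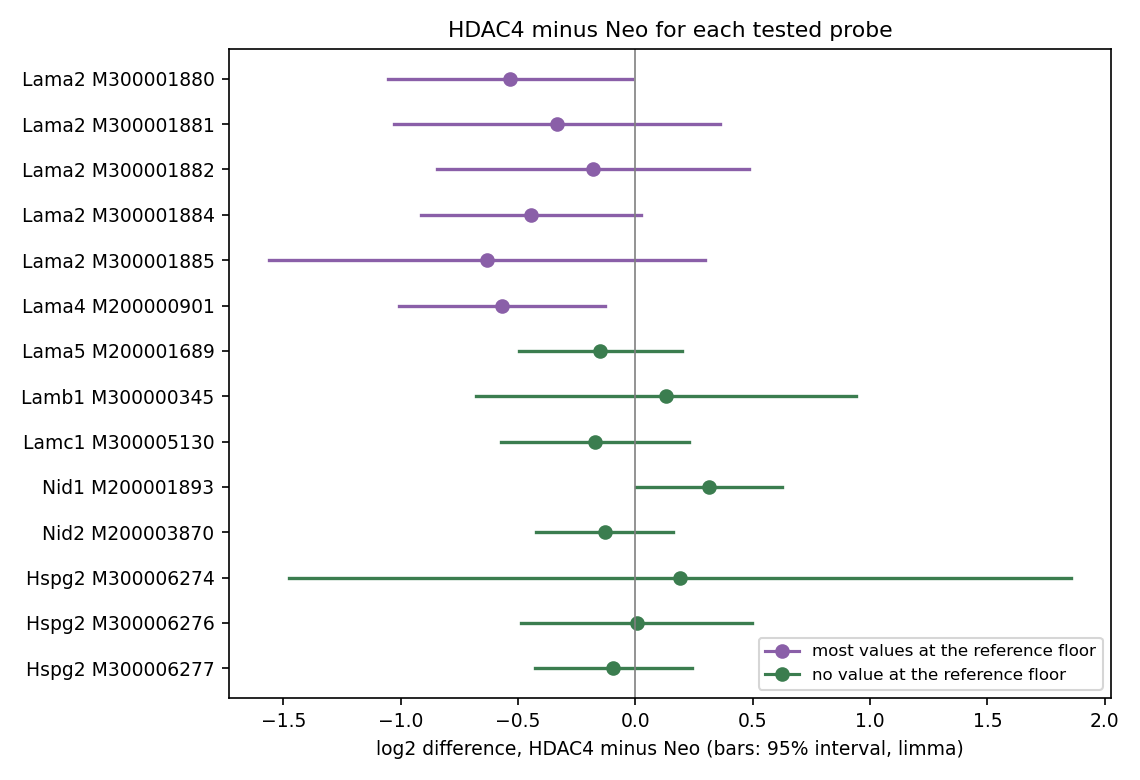
Log2 difference between HDAC4 and Neo for each tested probe, with 95% intervals from limma; purple marks probes with most values at the reference floor and green those with none. The 6 purple probes lie below 0, from -0.63 to -0.18, and the 8 green ones lie on both sides, from -0.17 to 0.31.

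Lama2 had 6 probes, and the 5 that were tested all lay lower in HDAC4, by between 0.18 and 0.63 on the log2 scale. These probes share 1 gene and are not separate evidence. M300001884 gave 154, 136 and 110 units on Neo arrays 1 to 3 and 78, 83, 109 and 80 units in HDAC4. On Neo replicate 4 the reference was not at the floor. There 83.6 is 10 times the ratio and not the signal of the cells alone. By its ratio Neo replicate 4 fell among the HDAC4 arrays, and HDAC4 replicate 3 lay just below Neo replicate 3, so the groups overlapped. The log2 difference was -0.44 ± 0.21 (SE; 95% interval -0.91 to 0.02; limma adjusted p = 0.746; exact two-sided permutation p = 0.0857, n = 4 and 4). Floor probes with a mean log2 ratio between 2 and 4, which this probe also has, had a median difference of -0.51, and 84.7% of them were lower.

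Probe M300001885 of Lama2 gave the lowest difference of the set and the widest scatter in the gene. It read 21, 49, 37 and 33 units in Neo and 10, 18, 32 and 38 units in HDAC4, all at the floor. HDAC4 replicates 3 and 4 lay among the Neo arrays, while replicates 1 and 2 lay below all of Neo. The difference was -0.63 ± 0.41 (SE; 95% interval -1.56 to 0.30; limma adjusted p = 0.858; exact permutation p = 0.229, n = 4 and 4).

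The other Lama2 probes sat close to the floor itself. M300001880 read 14, 24 and 21 units in Neo replicates 1 to 3 and 13, 13 and 14 units in HDAC4 replicates 2 to 4, with no value on the remaining arrays. The lowest Neo value and the highest HDAC4 value were tied at 14 units, and centring alone set them apart, at 0.47 and 0.46 on the log2 scale. The difference was -0.54 ± 0.22 (SE; limma p = 0.0452 unadjusted and 0.707 adjusted; exact permutation p = 0.10, the smallest that 3 against 3 arrays allow). On the values as deposited the exact permutation p was 0.20. Non-overlapping groups with HDAC4 below were found in 3.18% of all tested probes and in 18.9% of those mostly at the floor. An unadjusted p under 0.05 on that side was found in 4.40% and 30.0% of them. Floor probes with a mean log2 ratio between 0 and 1, which this probe also has, had a median difference of -0.18. Of these 224 probes, 161 were lower. That median was smaller in size than the difference of M300001880.

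M300001881 read 21, 30, 29 and 14 units in Neo and 13, 20 and 22 units in HDAC4 replicates 1, 3 and 4, a difference of -0.33 ± 0.30 (SE). M300001882 read 10, 19, 19 and 15 units in Neo and 13, 19 and 10 units in HDAC4 replicates 2 to 4, a difference of -0.18 ± 0.29 (SE). Both overlapped, with limma adjusted p of 0.897 and 0.953. The untested probe M300001883 had values of 24, 12 and 10 units on Neo replicates 2 to 4 and none on any HDAC4 array. No fold is given for it, since why a value is missing is not stated.

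Values were missing more often in HDAC4 across the array as well. Member probes had a value in 59 of 72 Neo cells of the table (81.9%) and in 52 of 72 HDAC4 cells (72.2%), beside 65.0% and 56.2% for all probes. Averaging the 5 tested Lama2 probes, each centred on its own mean, gave a gene difference of -0.47 ± 0.23 (SE; 95% interval -0.99 to 0.04; limma adjusted p = 0.734).

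Lama4, an alpha chain found in vessels and in developing muscle, had the smallest p of the set. Its probe read 37, 42 and 34 units in Neo replicates 2 to 4 and 21, 26 and 30 units in the HDAC4 replicates of the same numbers, with no value on either array numbered 1. All 3 HDAC4 values lay below all 3 Neo values. Neo averaged a log2 ratio of 1.89 ± 0.16 (SD, n = 3), and HDAC4 averaged 1.32 ± 0.25 (SD, n = 3). The value was 1.48-fold lower in HDAC4 (log2 difference -0.57 ± 0.19, SE; 95% interval -1.01 to -0.13; limma p = 0.0179 unadjusted and 0.567 adjusted; exact permutation p = 0.10). All 6 values were at the floor, and floor probes with a mean log2 ratio between 1 and 2 had a median difference of -0.44, with 84.8% of them lower. Endothelial markers, which would accompany Lama4 from vessel cells, had values on all arrays for 2 probes only, Cldn5 and Pecam1. These averaged -1.05 to -0.16 in Neo and -1.16 to -0.55 in HDAC4. Cldn5 was at the floor on all 8 arrays and Pecam1 on none, so the average joins unlike values. Tek and Emcn had no value. The part of endothelial cells in the result was not tested.

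Lama5, the alpha chain of many adult basement membranes, was measured away from the floor. Its log2 ratios were 0.37, 0.41, 0.46 and 0.11 in Neo and -0.16, 0.28, 0.33 and 0.3 in HDAC4. HDAC4 replicate 1 stood below the other 7 arrays, and Neo replicate 4 lay below the other 3 HDAC4 arrays. The difference was -0.15 ± 0.15 (SE; 95% interval -0.50 to 0.20; limma adjusted p = 0.914), and over replicates 2 to 4 alone it was -0.02. Lama3, the alpha chain of epithelial laminin that anchors the epidermis, had 2 probes with 1 value between them, 10 units on Neo replicate 2, where cells and reference both stood at the floor.

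Among the members, the tested beta chain, Lamb1, and the gamma chain, Lamc1, differed between the groups by no more than their SE over all 8 arrays. Lamb1, the common beta chain, had log2 ratios of -2.40, -0.75, -1.04 and -0.93 in Neo and -1.66, -0.80, -1.34 and -0.78 in HDAC4. The lowest array of each group was replicate 1, and the groups overlapped throughout. The difference was 0.13 ± 0.36 (SE; 95% interval -0.68 to 0.94; limma adjusted p = 0.970), and without both arrays numbered 1 it was -0.07.

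Lamc1, the gamma chain of nearly all laminins and the chain that nidogen grips, had log2 ratios of -0.55, -0.80, -0.82 and -0.79 in Neo and -0.41, -1.07, -1.08 and -1.09 in HDAC4. Here the highest array of each group was replicate 1, and replicates 2 to 4 were tightly grouped, with all 3 HDAC4 values below all 3 Neo values. The difference over all arrays was -0.17 ± 0.18 (SE; limma adjusted p = 0.914). Without both arrays numbered 1 it was -0.28 ± 0.09 (SE; limma adjusted p = 0.169), and without HDAC4 replicate 1 it was -0.34 ± 0.12 (SE; limma adjusted p = 0.310).

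The nidogens, encoded by a pair of related genes, lay on opposite sides. Nid1 had log2 ratios of -0.35, -0.67, -0.59 and -0.68 in Neo and -0.08, -0.46, -0.19 and -0.31 in HDAC4. Neo replicate 1 lay above HDAC4 replicate 2, and otherwise the HDAC4 arrays were higher. At each replicate number the HDAC4 array was the higher one. The labels state no pairing, however, and the share of all probes with this order was not counted. With the replicate number as a block the limma adjusted p was 0.364. The means were -0.57 ± 0.15 (SD, n = 4) and -0.26 ± 0.16 (SD, n = 4), a 1.24-fold higher value in HDAC4 (log2 difference 0.31 ± 0.14, SE; limma p = 0.0497 unadjusted and 0.710 adjusted; exact permutation p = 0.0571). No value was at the floor. An unadjusted p under 0.05 with HDAC4 higher was found in 2.63% of all tested probes.

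Nid2 had log2 ratios of 1.25, 1.43, 1.57 and 1.38 in Neo and 1.46, 1.2, 1.17 and 1.27 in HDAC4. HDAC4 replicate 1 lay above Neo replicates 2 and 4, and Neo replicate 1 below HDAC4 replicate 4, so the groups overlapped through the arrays numbered 1. The difference was -0.13 ± 0.13 (SE; 95% interval -0.42 to 0.16; limma adjusted p = 0.909), and -0.25 ± 0.10 (SE; limma adjusted p = 0.256) without both arrays numbered 1.

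The difference of Nid1 minus Nid2 within an array, a comparison chosen after the values were seen, averaged -1.98 ± 0.26 (SD, n = 4) for Neo arrays and -1.54 ± 0.13 (SD, n = 4) for HDAC4 arrays. It moved by 0.44 between the groups, with an exact two-sided permutation p of 0.0571. The smallest p that 4 against 4 arrays allow is 0.0286, so the unequal change of the nidogens did not pass.

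Hspg2, the perlecan gene, had 4 probes, and none of the 3 tested ones separated the groups. M300006277 had log2 ratios of 1.17, 1.51, 1.44 and 1.26 in Neo and 1.01, 1.5, 1.32 and 1.16 in HDAC4, a difference of -0.10 ± 0.15 (SE; 95% interval -0.43 to 0.24). M300006276 had 0.52, 1.34, 1.38 and 1.03 in Neo and 0.66, 1.25, 1.18 and 1.18 in HDAC4, a difference of 0.0047 ± 0.22 (SE; 95% interval -0.49 to 0.50). On both of them replicate 1 was the lowest array of its group.

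The same held, by far more, for M300006274, with -2.25, 0.77, 0.19 and 0.23 in Neo and -1.97, 0.42, 0.58 and 0.67 in HDAC4. Its difference was 0.19 ± 0.74 (SE; 95% interval -1.47 to 1.86), the spread including the shift of the arrays numbered 1. With replicate 1 as a batch term it was 0.19 ± 0.15 (SE; adjusted p = 0.616), and with the replicate block 0.19 ± 0.16 (SE; adjusted p = 0.688), both in limma. The limma adjusted p of the 3 probes were 0.948, 0.998 and 0.979. The untested probe M300006275 had a single value, 34 units on Neo replicate 4.

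The arrays numbered 1, of both groups, stood apart from the others on many members. In a limma fit with replicate 1 as a batch term, their difference from the rest was larger in size than that of HDAC4 from Neo on 9 of 13 members with an estimate. Of these members, 6 of the 13 differed between these arrays and the rest at an adjusted p under 0.05, 5 lower and 1 higher. Over all probes the share was 21.5%, with 11.2% lower and 10.3% higher. Hspg2 M300006274 was lower on the arrays numbered 1 by a log2 difference of -2.58 ± 0.17 (SE; adjusted p = 5.36e-04), while M300006276 and M300006277 of the same gene gave -0.64 ± 0.13 (adjusted p = 0.0138) and -0.27 ± 0.13 (adjusted p = 0.176). Probes of 1 gene therefore disagreed on the size of this difference.

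Of the laminin chains, Lamb1 was lower on the arrays numbered 1 by -1.09 ± 0.22 (SE; limma adjusted p = 0.0130) and Lamc1 was higher by 0.46 ± 0.12 (SE; limma adjusted p = 0.0317). Lama2 M300001885 gave -1.18 ± 0.29 (SE; limma adjusted p = 0.0239), whereas M300001884 of the same gene gave 0.16 ± 0.23 (SE; limma adjusted p = 0.648). The difference of Lama2 M300001880, -0.69, rests on Neo replicate 1 alone; over the 11 members with a value on both arrays numbered 1, 5 passed. The nidogens did not pass in this comparison, with 0.26 ± 0.12 (SE) for Nid1 and 0.02 ± 0.13 (SE) for Nid2. The labels do not say what the number marks.

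**Figure D3:**
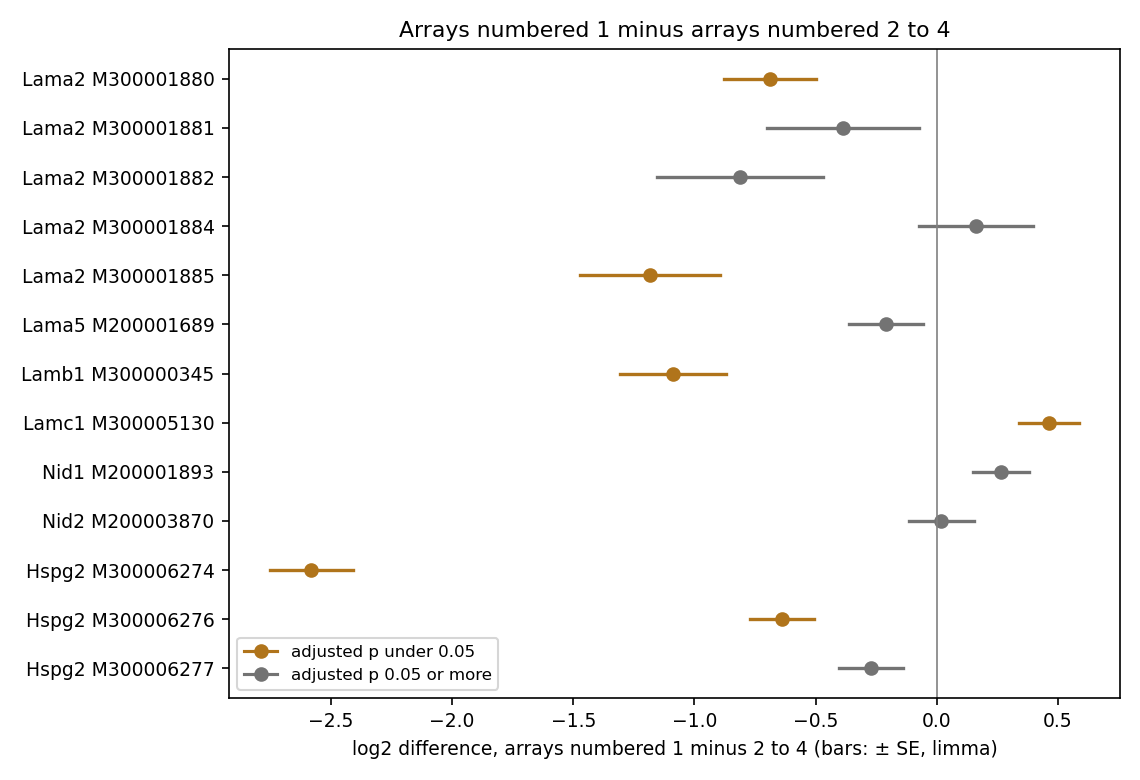
Log2 difference between the arrays numbered 1 and those numbered 2 to 4, adjusted for the virus, with bars of ± SE; brown marks an adjusted p under 0.05. Lama2 M300001880 and M300001882 have 1 array numbered 1 each. Hspg2 M300006274 lies at -2.58, Lama2 M300001885 at -1.18, Lamb1 at -1.09, and Lamc1 to the right of 0 at 0.46.

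With these arrays set aside, no member was called either. With replicate 1 as a batch term 108 probes of 16748 differed between HDAC4 and Neo (0.645%), and the lowest adjusted p among the members was 0.0884, for Lama2 M300001880 with a difference of -0.76 ± 0.14 (SE), which rests on 2 Neo and 3 HDAC4 arrays. Without both arrays numbered 1, 348 probes of 15397 differed (2.26%), and the lowest adjusted p of the 12 members still tested was 0.126, for Lama4. Over replicates 2 to 4, the groups did not overlap on 4 of the 12 members with all 6 values, namely Lama4, Lamc1 and Nid2 with HDAC4 lower and Nid1 with HDAC4 higher. Over all probes with 6 values this was so for 26.2%, with HDAC4 lower in 13.6% and higher in 12.6%.

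The values of Lama2 and Lama4 moved with the treatment of the floor. When the shift of other floor probes on each array was subtracted from floor values, Lama4 went from -0.57 to -0.04. The 5 Lama2 probes went to values between -0.09 and 0.26, and 3 of them changed sign. The shift was above 0 on every Neo array and below 0 on every HDAC4 array. Subtracting it therefore raised the difference of any floor probe by construction. It was not matched to the level of a probe. Floor probes with a mean log2 ratio between 0 and 1, such as M300001880 and M300001882, had a median difference of only -0.18 before it was removed. The members then divided into 7 lower and 7 higher. Nid1, away from the floor, kept its 0.31 by construction.

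**Figure D4:**
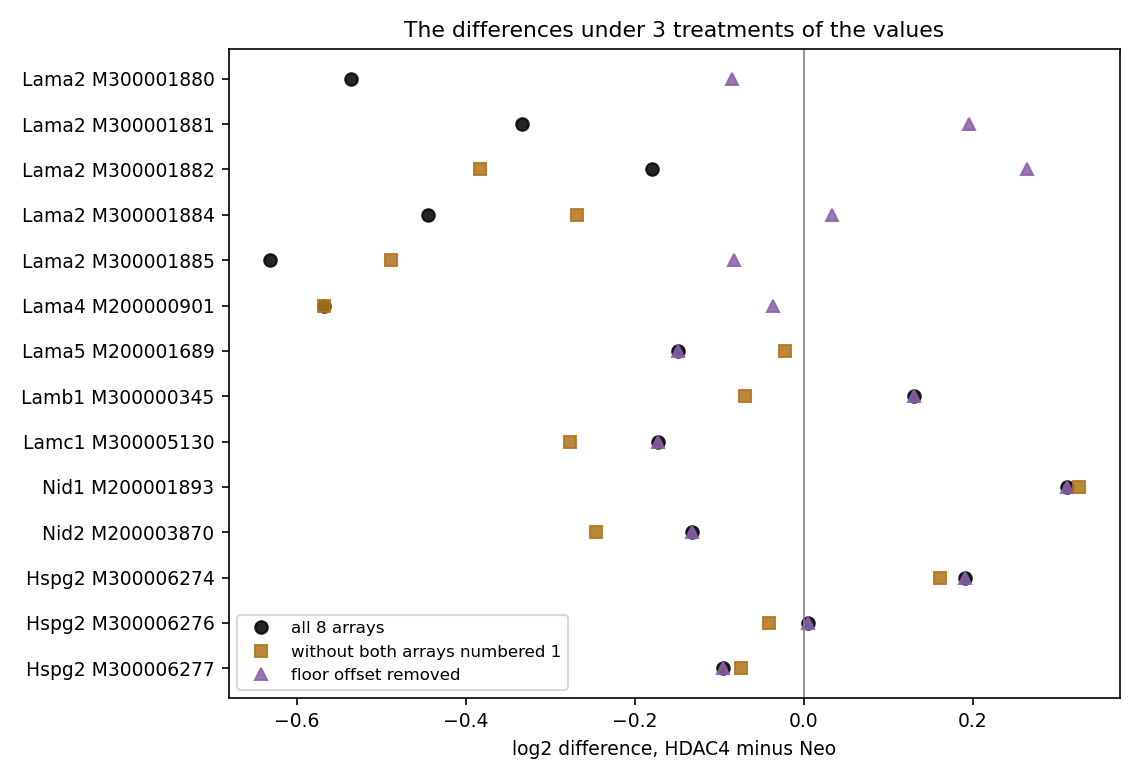
Log2 difference between HDAC4 and Neo for each tested probe over all 8 arrays (circles), without both arrays numbered 1 (squares) and with the floor shift removed (triangles). The triangles of Lama2 and Lama4 lie between -0.09 and 0.26, to the right of the circles by construction, while Nid1 stays near 0.31 in all 3.

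The partners of these proteins in the basement membrane were read from a list of 34 genes that are not members, of which 17 were tested with 24 probes. None passed in limma, 17 of the 24 probes lay lower in HDAC4 and 7 higher, and the median was -0.14. At an unadjusted p under 0.05 there were 5 lower and 1 higher, beside 4.40% and 2.63% of all probes. One of the lower ones was Lamb3, the beta chain of epithelial laminin, named here after its values were seen: it averaged -0.22 ± 0.26 (SD, n = 4) for Neo and -0.75 ± 0.27 (SD, n = 4) for HDAC4 arrays, a difference of -0.53 ± 0.18 (SE; limma adjusted p = 0.561), with no value at the floor. Col18a1, whose product is cleaved to endostatin, was the one that lay higher. Neo arrays averaged -0.87 ± 0.44 (SD, n = 4), and HDAC4 arrays averaged 0.34 ± 0.37 (SD, n = 4). Its log2 difference was 1.21 ± 0.25 (SE; limma adjusted p = 0.169), its groups did not overlap, and none of its values was at the floor.

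Col4a1, a chain of the type IV collagen network to which nidogens tie laminin, had a difference of -0.50 ± 0.17 (SE; limma adjusted p = 0.526). The 4 probes of Col4a2, its partner chain, gave -0.28, -0.22, -0.06 and -0.09. Agrn, the heparan sulfate proteoglycan that clusters acetylcholine receptors, gave -0.63 ± 0.27 (SE; limma adjusted p = 0.705) and -0.20 ± 0.38 (SE) on its 2 probes. Without both arrays numbered 1, 5 of the 23 probes of the list still tested passed, beside 2.26% of all probes: Col18a1 at 1.59 (adjusted p = 0.00511) rose, while Agrn M300013436 at -0.80 (0.0177), Fbln5 at -0.90 (0.0210), Col4a5 at -0.70 (0.0284) and Col4a1 at -0.55 (0.0411) fell. None of these 5 had a value at the floor. With all arrays and replicate 1 as a batch term none of them passed, with adjusted p between 0.0693 and 0.3003. Col15a1 and Sparc were not tested.

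The receptors that hold laminin on the cell were read from 16 genes, of which 12 were tested with 18 probes. None passed, 10 probes lay lower and 8 higher, and the median was -0.08. At an unadjusted limma p under 0.05 there were 0 lower and 1 higher, beside 4.40% and 2.63% of all probes. The higher one was Sdc4, named here after its values were seen, at 0.46 ± 0.14 (SE; limma adjusted p = 0.448). Its groups did not overlap, as on 5.25% of all probes, and it had no value at the floor. Dag1, dystroglycan, which binds the Lama2 product and perlecan, had a difference of 0.20 ± 0.19 (SE; limma adjusted p = 0.897). Itgb1, the beta chain of the laminin-binding integrins of muscle, had -0.34 ± 0.16 (SE; limma adjusted p = 0.752). Its partner Itga7, the main laminin-binding integrin alpha chain of myotubes, gave 0.21 ± 0.21 (SE) and, on a probe wholly at the floor, -0.36 ± 0.21 (SE).

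Itga3 gave 0.02 ± 0.22 (SE), the 3 probes of Itga6 gave -0.24, -0.16 and 0.20, and the 2 probes of Bcam, a receptor for the Lama5 product, gave -0.11 and -0.14. Among the 6 tested genes for the dystroglycan glycan that laminin binds, 5 of 7 probes lay higher and 2 lower, with none called.

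Other cell types that secrete these proteins were checked through marker lists. Averages per array ranged from -1.25 to 0.11 in Neo and from -0.40 to 0.03 in HDAC4 for 6 fibroblast markers, from -2.85 to -2.37 and from -2.71 to -2.16 for 8 markers of undifferentiated myoblasts, and from 8.86 to 9.05 and from 8.74 to 8.96 for the myotube markers. The 2 measured smooth muscle or pericyte markers, Cspg4 and Pdgfrb, averaged 1.48 to 1.67 in Neo and 0.56 to 1.97 in HDAC4, with no value for Acta2 and Myh11. The 7 averaged myotube probes were at the reference floor on all 8 arrays, and 81.1% of tested probes mostly at the floor lay lower in HDAC4. The ranges of the groups overlapped in each of these lists. Single markers went both ways within them. Postn differed by -0.72, Id1 by -0.70 and Cspg4 by -0.95, while Sdc4 differed by 0.46 and Thy1 by 1.29. Casq2, a myotube marker outside the averages for want of a value, differed by -3.20 ± 1.38 (SE; limma adjusted p = 0.710). Its HDAC4 values had an SD of 3.34 (n = 3), and 6 of its values over both groups were at the floor. Only for Id1 and Sdc4 did the groups not overlap. These markers were picked with their values known, as all those with an unadjusted limma p under 0.05. No marker probe passed in the fit over all 8 arrays. Id1 passed with replicate 1 as a batch term (-0.70; limma adjusted p = 0.0279), and Id1, Hey1, Dpt and Postn passed without both arrays numbered 1. The part of these cell types in the members' values was not tested.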

How the data were processed

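Total RNA of 8 C2C12 samples (4 Neo, 4 HDAC4) was hybridised to 2-colour oligonucleotide arrays. RNA (10 µg) was treated with DNase and labelled from oligo dT primers, per the labels' protocols. The authors deposited their values as a log2 ratio for each probe on each array. Their background correction, normalization, filters and software are details not given in the sources used here. Array medians lay between 0.00576 and 0.0286 and arrays held 17014 to 22193 values. Precision is limited by the number of arrays.

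Probes were named from the platform annotation (18976 with 1 gene, 404 with several, 12389 not listed), with symbols updated through gene identifiers of the RefSeq table (GRCm38.p6). A value was taken as at the reference floor where 10 times the linear ratio was whole within 0.001 and at least 10. Each array was centred on its median. Probes with at least 3 values per group were fitted with limma 3.58.1 in R 4.3.3 (lmFit, eBayes), with Benjamini-Hochberg adjustment over all 16748 probes and a threshold of 0.05. The method was tested on simulated data with 100 changed probes. It recovered 65% of log2 differences of 1 and 99% of those of 2, with 6 false calls each. The member differences, from -0.63 to 0.31, were smaller than either, so the absence of a call does not show that a member was unchanged. An exact two-sided permutation test was added for single probes, on the difference in means over arrays.

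Same-numbered arrays deviated together from their group means, with correlations across probes of 0.53, 0.31, 0.21 and 0.11 for numbers 1 to 4, all above 0.1, the limit for a paired fit. Differently numbered arrays correlated as highly among numbers 2 to 4 (Neo 2 with HDAC4 4 at 0.27, Neo 2 with HDAC4 3 and Neo 3 with HDAC4 4 at 0.22), so number 1 alone stood apart. The labels state no pairing. The reported fit is unpaired, and the paired fit, with the number as a block, is an alternative. Every member was named whatever it showed, as were 12 partner genes where tested and any partner probe called. Members and lists were chosen with earlier results of these data known. The alternatives changed the centring, normalization, filter, unit of test, block, batch, floor values and variance model, and left out each array in turn.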

Additional observations from a re-analysis of the deposited data

Results flagged for a closer look

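In groups of 4 arrays, 5 of the 22 member groups with all values had 1 array far from the other 3, by Dixon's test at its 95% critical value. Chance gives about 1 in 20, but the share over all probes was not computed. Arrays numbered 1 differed from the rest on 21.5% of all probes (limma adjusted p under 0.05). The count is therefore not shown to be particular to the members. All 5 were arrays numbered 1. HDAC4 replicate 1 stood apart for Lama5 at -0.16, for Lamc1 at -0.41, for Hspg2 M300006274 at -1.97 and for Hspg2 M300006276 at 0.66 (log2 ratio). Neo replicate 1 stood apart for Lamc1 at -0.55. Lamc1 was high on these arrays and the others were low. The cause was not tested.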

How the results depend on the processing

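No member was called under any of the 20 alternatives run, with 0 to 4 members at an unadjusted limma p under 0.05, and 241 of 260 values of single members kept their sign. The count over all probes, 21, was 9 with the replicate block, 108 with replicate 1 as a batch, 348 without both arrays numbered 1, 4 with the floor shift removed, 1 with floor values set to missing, and 64 with batch and floor shift together, an alternative chosen after seeing the data. It ranged from 0 to 74 with 1 array left out: 59 and 74 without replicate 1 of Neo and HDAC4, 4 and 4 without HDAC4 replicates 2 and 3, and 0 without HDAC4 replicate 4 or any other Neo array, where 845 to 965 probes had an unadjusted limma p under 0.05. Beyond the 5 basement membrane probes called without both arrays numbered 1, the basement membrane and receptor lists had no call in any other of these fits. The replicate block called no member and no probe of these 2 lists. Of its 9 calls across the array, 7 were among the 21.

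Signs changed as follows. With the floor shift removed, Lama2 M300001881, M300001882 and M300001884 had 0.20, 0.26 and 0.033, and 0.19, 0.15 and 0.033 with the batch as well. That step raises floor differences by construction. Without both arrays numbered 1, Lamb1 had -0.069 and Hspg2 M300006276 had -0.041; quantile normalization gave the latter -0.031. With 1 array left out, Lamb1 ranged from -0.24 to 0.31, Lama2 M300001882 from -0.42 to 0.040, Hspg2 M300006274 from -0.47 to 0.82 and Hspg2 M300006276 from -0.18 to 0.14. The cause was not tested. Nid1 ranged from 0.25 to 0.39 and Lama4 from -0.69 to -0.43 in those fits. For Lama2, most signals stood near the floor.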
